A study of Mus musculus with 8 samples.

Results

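Nr4a1, Nr4a2, Nr4a3, Egr1, Egr2, Egr3, Fos, Fosb, Junb and Ier2 were followed across the B and T cell classes of mouse spleen. These 10 genes were taken by symbol from the 32285 genes listed for each library. Cells of Eif3e fl/fl Cγ1Cre Rosa26-YFP LSL mice (cKO) were compared with cells of Cγ1Cre Rosa26-YFP LSL mice (control), all on the C57BL/6J background and aged 2 months. Both genotypes therefore carried the Cre and the YFP reporter, and only the cKO carried the loxP-flanked Eif3e allele, whose product is a subunit of the translation initiation factor eIF3. The Cre is switched on by transcription through the γ1 constant region, an event of activated B cells, and YFP marks cells that have recombined the reporter, so a total cKO library can also hold cells that never deleted Eif3e. Total live splenocytes (control total, cKO total) or YFP+ cells (control YFP+, cKO YFP+) were sorted, and each of the 8 libraries, 2 per group, held cells pooled from 2 to 3 mice. The same 2 batches ran through all 4 groups.

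Immediate early genes are transcribed within minutes of a stimulus without new protein synthesis. In lymphocytes, the antigen receptor drives them through calcium and calcineurin, which act on NFAT and MEF2, and through the ERK kinases, which act on SRF and its ETS-type cofactors. Nr4a1 (Nur77), Nr4a2 and Nr4a3 are orphan nuclear receptors that restrain lymphocyte responses, and Nr4a1 reporters are widely used to read antigen receptor signaling. Egr1, Egr2 and Egr3 are zinc finger transcription factors, of which Egr2 and Egr3 are known for limiting T cell activation. Fos, Fosb and Junb are subunits of the AP-1 dimer. Ier2 is a nuclear protein whose gene is induced early by growth factors.

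Promoters of 7 of the 10 genes were read from the RefSeq table of the build GRCm38.p6. Egr3 and Ier2 had no entry, and Egr1 was left out. The 250 bases before the start site are shown for Nr4a1, Nr4a3 and Egr2, because these genes moved in opposite directions in the comparisons that follow. Capitals mark the core TGACG of the cyclic AMP response element, read on either strand.
Nr4a1, chr15:101266596-101266845, plus strand: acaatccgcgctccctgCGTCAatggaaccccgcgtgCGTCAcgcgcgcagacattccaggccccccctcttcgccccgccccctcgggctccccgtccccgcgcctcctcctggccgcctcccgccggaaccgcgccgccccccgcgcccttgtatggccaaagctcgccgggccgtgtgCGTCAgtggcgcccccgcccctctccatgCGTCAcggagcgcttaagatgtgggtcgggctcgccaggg
Nr4a3, chr4:48045055-48045304, plus strand: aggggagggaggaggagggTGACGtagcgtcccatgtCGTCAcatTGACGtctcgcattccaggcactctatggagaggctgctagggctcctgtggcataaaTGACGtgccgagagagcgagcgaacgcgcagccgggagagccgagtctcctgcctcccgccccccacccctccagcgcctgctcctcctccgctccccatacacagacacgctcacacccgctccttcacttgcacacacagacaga
Egr2, chr10:67537619-67537868, plus strand: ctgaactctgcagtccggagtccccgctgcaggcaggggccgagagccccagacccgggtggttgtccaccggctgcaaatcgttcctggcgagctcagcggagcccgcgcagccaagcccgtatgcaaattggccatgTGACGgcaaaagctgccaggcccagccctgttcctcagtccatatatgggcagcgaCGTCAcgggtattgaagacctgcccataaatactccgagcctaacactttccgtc
Nr4a1, Nr4a2 and Nr4a3 each held 4 cores in this window, against 0.137% of the 32851 promoters in the table with at least 4. The printed Egr2 window, 1 of 5 listed for this gene, was picked because it held both a core and a CArG box, the binding motif of SRF. It held 2 cores, as did that of Fos, and 3.9% of all promoters held at least 2. A CArG box was in 1.47% of promoters. As the Egr2 window was picked for these motifs, the shares do not measure how unusual it is. Of the 4 other Egr2 windows, 2 held no core, and 1 of these held no CArG box either. Fosb and Junb held 1 core each, and 17.8% of promoters held at least 1. Read on both strands, the 3 printed windows held no full palindrome TGACGTCA, which contains the core (1.55% of promoters), no AP-1 site TGACTCA or TGAGTCA (4.46%), no Egr box GCGTGGGCG (0.536%), no Ets core CCGGAAG (6.91%) and no TATA box TATAAA (12.4%).

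The files held 83967 cell barcodes, of which 83704 passed the filters, with 71894780 to 105224903 unique molecular identifiers (UMIs) per library and a median of 5250.0 to 6810.5 per cell. In all, 2029 barcode sequences were found in more than 1 library. Cells were clustered without the 10 genes, and clusters were named B-like or T-like from marker lists. Levels are given as CPM, the counts of a gene per 1000000 UMIs of a class in a library, with batch 1 first and batch 2 second. Genotypes were tested on these sums with edgeR, 2 libraries against 2, and a call required an adjusted p under 0.05 over all genes. Each test was repeated with the batch as a term in the model, here called the batch block. Because the classes are unequal mixtures of states in the 2 genotypes, more cells of a state and more RNA per cell cannot be told apart in such sums.

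Eif3e itself was measured by 3′ tags, which need not lie in the deleted part of the gene. In naive B-like cells it was at 197 and 241 CPM in control total and at 218 and 281 in cKO total (adjusted p = 1.0). In YFP+ naive B-like cells it was at 207 and 261 CPM in control and 276 and 352 in cKO, higher in both batches without passing (0.48 ± 0.28, adjusted p = 0.93). In the sum of the B cell clusters B0, B1, B2 and B3 of the YFP+ sort, of which only B0 and B3 were named naive B-like, the levels were 208 and 261 against 289 and 366 (0.64 ± 0.30, adjusted p = 0.50). In activated B-like cells of the YFP+ sort it fell from 277 and 297 CPM to 159 and 161 (log2 fold change -0.76 ± 0.19 SE, adjusted p = 0.044). It was at 264 and 297 CPM in control and 271 and 303 in cKO YFP+ germinal center B-like (GCB) cells, a class in which this gene did not separate the genotypes.

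Among naive B-like cells, the question was whether the genes of antigen receptor signaling differed in cells named from naive markers. Those of the YFP+ sort had recombined the reporter, so they cannot be taken as cells before activation. The 3 Nr4a genes and Egr3 stood lower in both cKO libraries of each sort than in every control library of that sort, whereas Egr2 and Egr1 stood higher in the cKO in total splenocytes. Nr4a1 was at 191 and 205 CPM in control total and at 116 and 117 in cKO total. Nr4a3 was at 24.5 and 22.0 CPM in control total and at 11.5 and 11.6 in cKO total. Egr3 was at 44.1 and 55.0 CPM against 16.8 and 23.2, and Nr4a2 at 9.46 and 14.7 against 6.35 and 4.43. With 2 libraries against 2, 9 of the 10 genes in total and 7 in YFP+ naive B-like cells did not overlap between the genotypes, beside 29.7% and 32.2% of all genes.

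By edgeR none of the 10 genes passed in total naive B-like cells, where 0.0582% of 12020 genes were called. At an unadjusted p under 0.05 there were 7 of the 10, beside 5.29% of all genes. In the 34 other comparisons of classes given here, apart from the follicular pool between genotypes, that share was 1.24% to 25.4%. This range is the background for the unadjusted counts below, whereas each share of genes called or passing refers to the adjusted p. DESeq2 called 1, lower in the cKO, where it called 0.824% of all genes. The batch block called 8 of the 10, 2 higher and 6 lower, where it called 11.0% of all genes. The log2 fold changes were -0.72 ± 0.22 for Nr4a1 (adjusted p = 0.52, with the block 2.2e-05), -0.95 ± 0.19 for Nr4a3 (0.23, with the block 9.1e-05) and -1.26 ± 0.25 for Egr3 (0.24, with the block 7.7e-07). For Nr4a2 the value was -1.12 ± 0.31 (adjusted p = 0.42, with the block 0.017). The median over the 10 genes was -0.70, beside -0.01 over all genes tested.

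Egr1 and Egr2 went the other way in these cells. Egr1 was at 11.6 and 17.5 CPM in control total and 20.3 and 29.0 in cKO total, a log2 fold change of 0.82 ± 0.29 (adjusted p = 0.71, with the block 0.00017). Egr2 was at 2.32 and 2.68 CPM in controls and 4.30 and 9.16 in the cKO (1.49 ± 0.41, adjusted p = 0.42, with the block 0.0017).

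Of the AP-1 genes, Fos changed sign between the batches. It was at 364 and 648 CPM in control total and at 376 and 296 in cKO total, so that the within-batch log2 ratio was 0.05 in batch 1 and -1.13 in batch 2. Junb, at 903 and 1316 CPM in controls and 637 in each cKO library, was lower in both batches and passed only with the block (-0.75 ± 0.28, adjusted p = 0.80, with the block 0.023). Ier2, at 163 and 198 CPM against 130 and 143, also passed only with the block (adjusted p = 0.0095). Fosb, at 58.7 and 101 CPM against 49.8 and 46.5, was lower in both batches (within-batch log2 ratios -0.24 and -1.12) but did not pass in either fit.

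In YFP+ naive B-like cells, Nr4a3 fell. It was at 29.97 and 35.8 CPM in control YFP+ against 9.47 and 8.54 in cKO YFP+ (log2 fold change -1.81 ± 0.25, adjusted p = 0.038), the 1 gene of the 10 that passed, where 0.226% of all genes did. More of the 10 were called without control YFP+ 1 or without control YFP+ 2. Those fits rest on a single control library each, and their share of all genes called is not given. The call on Nr4a3 was lost when cells were clustered more coarsely (-1.65, adjusted p = 0.085) or more finely (-1.08, adjusted p = 0.15). With the batch block 3 genes passed, Nr4a1, Nr4a3 and Egr3, where 7.21% of all genes did, and DESeq2 called 3, where it called 1.2% of all genes.

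Egr3 was at 47.4 and 49.9 CPM in control YFP+ against 18.2 and 16.6 in cKO YFP+ naive B-like cells (-1.43 ± 0.22, adjusted p = 0.059, with the block 0.0029). Nr4a1 was at 168 and 318 CPM against 107 and 91.5 (-1.25, adjusted p = 0.27, with the block 0.038). The library control YFP+ 2 was the highest of the 8 for Nr4a1, Nr4a2, Nr4a3, Egr1, Fos, Fosb, Junb and Ier2 in this class. Egr1 was at 10.4 and 43.1 CPM in control YFP+ against 21.8 and 30.1 in cKO YFP+, and its within-batch log2 ratio was 1.07 in batch 1 and -0.52 in batch 2. Egr2 was at 2.76 and 8.90 CPM against 5.50 and 13.6, higher in the cKO within each batch but overlapping between the groups (0.78, adjusted p = 1.0).

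**Figure D1:**
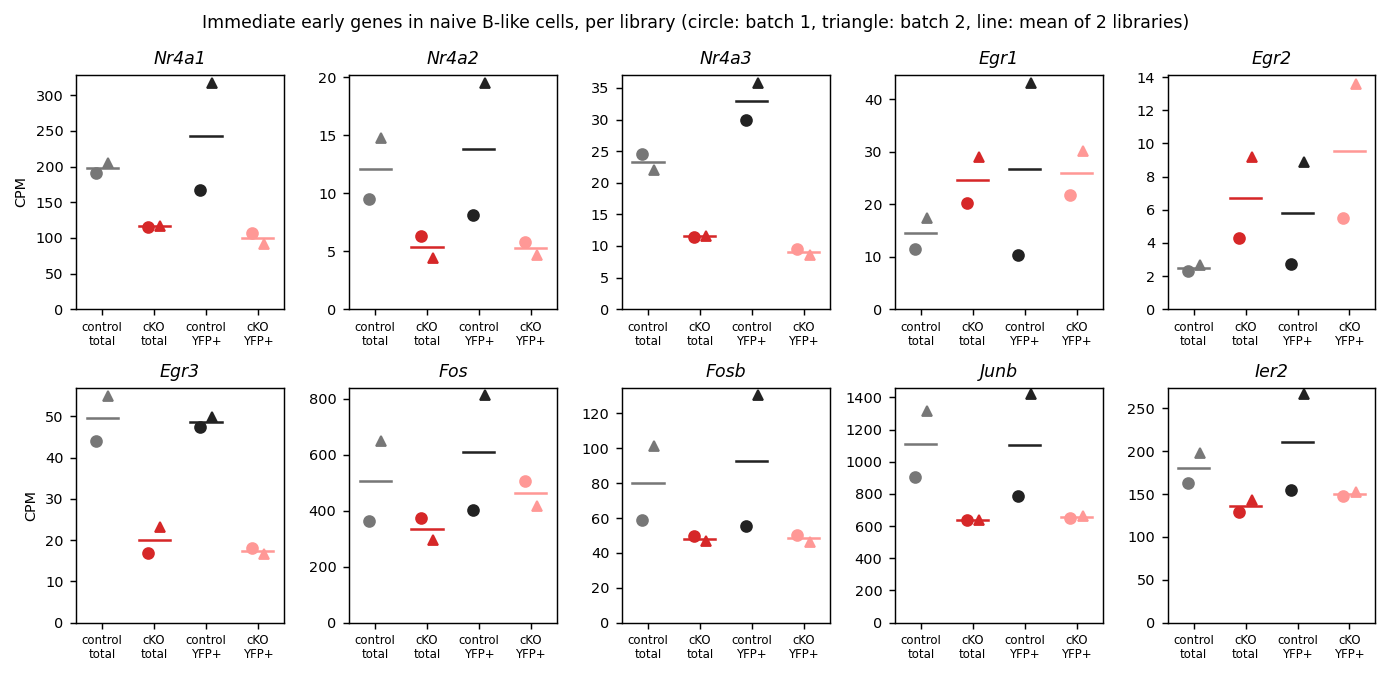
Levels in CPM (y axis, from 0) of the 10 genes in naive B-like cells of the 4 groups (x axis), with circles for batch 1, triangles for batch 2 and a line at the mean of 2 libraries. Nr4a1, Nr4a3 and Egr3 lie lower in both cKO libraries of each sort, Egr2 lies higher in cKO total than in control total, and the triangle of control YFP+ stands above the other libraries for 8 genes.

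The sums of stress and dissociation genes were set beside these values, and those of the dissociation genes overlapped between the genotypes in each sort. The 13 heat shock genes summed to 2030 to 2665 CPM in control total and 1551 to 2030 in cKO total naive B-like cells, and to 2008 to 2642 against 1589 to 2068 in the YFP+ sort. The 10 dissociation genes, a list of transcripts induced by tissue digestion (Klf2, Klf6, Nfkbia and others), summed to 2042 to 2593 CPM in control total against 2388 to 2681 in cKO total, and to 2175 to 3566 against 2885 to 3346 in the YFP+ sort. The 10 immediate early genes summed to 1772 to 2580 CPM in control total and 1318 to 1367 in cKO total. Erythroid transcripts summed to 218 to 221 CPM in control total and 18.3 to 457 in cKO total, and the T cell markers to 33.4 to 48.1 and 28.6 to 44.3. The part of these transcripts in the result was not tested.

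The naive B-like class was made of 2 clusters in different proportions. Cluster B0 held 2853 and 3692 of the control total cells but 321 and 308 of the cKO total cells, and cluster B3 held 56 and 64 of the former and 1490 and 1434 of the latter. In the YFP+ sort B0 held 1931 and 2365 control but 94 and 58 cKO cells, and B3 67 and 63 against 1243 and 1056. Within B0, Nr4a3 was at 24.8 and 22.3 CPM in control total and 24.3 and 21.0 in cKO total (log2 fold change -0.04 ± 0.25), so the lower level of the class in total splenocytes was not seen in this cluster. In the YFP+ sort Nr4a3 in B0 was at 30.7 and 36.2 CPM in control and at 21.4 and 12.65 in cKO, the latter on 8 and 3 UMIs, lower in both batches without passing (-0.90 ± 0.50, adjusted p = 1.0, with the block 0.65). Nr4a1 was at 192 and 206 CPM against 156 and 187, and Egr3 at 44.3 and 55.2 against 41.4 and 39.0 (-0.29). In B3, the cluster that made up most of the cKO naive B-like cells, Nr4a3 was at 9.10 and 9.76 CPM in cKO total, and its control value of 10.8 and 4.41 rested on 3 and 1 UMIs. In B3 of the YFP+ sort Nr4a3 was at 10.4 and 16.8 CPM in control, on 3 UMIs in each library, and at 8.74 and 8.36 in cKO.

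Egr1 and Egr2, by contrast, stood higher in the cKO within B0 of total splenocytes. Egr1 was at 11.7 and 17.3 CPM in control total and 42.7 and 36.5 in cKO total (1.46 ± 0.27, adjusted p = 0.23, with the block 0.00092). Egr2 was at 2.36 and 2.65 CPM against 8.53 and 12.4 (2.08 ± 0.41, adjusted p = 0.31, with the block 0.011). In this cluster 0.0347% of all genes passed without the block and 0.582% with it. In the YFP+ sort, Egr1 in B0 rose from 10.8 and 43.6 CPM to 72.2 and 110 (1.70 ± 0.38, adjusted p = 0.013), where 0.0985% of all genes were called. Egr2 in B0 of that sort overlapped between the genotypes, at 2.86 and 9.13 CPM in control and 5.35 and 8.44 in cKO, the latter on 2 UMIs in each library (0.14 ± 0.89, adjusted p = 1.0). In B3, Egr1 overlapped between the genotypes, at 7.20 and 30.9 CPM in control total, on 2 and 7 UMIs, and 16.1 and 27.5 in cKO total. Egr2 in B3 had 0 and 1 UMIs in control total and was at 3.52 and 8.52 CPM in cKO total. In the YFP+ sort Egr1 in B3 also overlapped, at 0 and 22.4 CPM in control and 18.8 and 26.7 in cKO. The Egr3 level in B3 was 32.4 and 39.7 CPM in control total and 12.3 and 20.01 in cKO total (-1.08, adjusted p = 1.0).

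The clusters B1 and B2 held few control cells and were left unnamed, since their leading genes and markers did not meet the rule for a name. B1, led by Scn3a, Crisp3, Pltp and Kcnk13, held 0 cells of each control total library and 678 and 1503 of cKO total, and 4 and 7 of control YFP+ against 2250 and 4044 of cKO YFP+. Egr2 was at 25.3 and 52.3 CPM in B1 of cKO total and 46.7 and 73.3 in cKO YFP+. Egr1 there was at 55.3 and 67.8 CPM and at 88.0 and 76.1. In B2, led by Lifr, Rflnb and St7, Egr2 was at 11.7 and 27.6 CPM in cKO total and 21.9 and 49.7 in cKO YFP+.

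Since these clusters held many of the cKO B cells, B0, B3, B1 and B2 were also summed as 1 follicular pool. It made up 48.9% and 49.2% of the B lineage of control total and 50.7% and 57.5% of that of cKO total. In the YFP+ sort its share was 23.4% and 21.6% for control and 57.7% and 68.8% for cKO. This pool was chosen after the clusters were seen. Egr2 in the pool was at 2.31 and 2.68 CPM in control total and reached 10.98 and 31.8 in cKO total (3.23 ± 0.56, adjusted p = 0.13, with the block 0.011). In the YFP+ sort it was at 3.09 and 8.80 CPM against 30.65 and 60.7 (3.13 ± 0.56, adjusted p = 0.065, with the block 1.0e-05). Nr4a1 in the pool was at 191 and 205 CPM against 135 and 113 in total splenocytes.

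In the follicular pool edgeR called 0 of the 10 genes in either sort, where it called 0.0637% of genes in total splenocytes and 0.679% in the YFP+ sort. At an unadjusted p under 0.05 there were 8 and 5 of the 10, beside 7.06% and 11.0% of all genes. DESeq2 called Egr1 and Egr2 in total splenocytes, where it called 1.76% of all genes, and Egr2 in the YFP+ sort, where it called 2.82%. With the batch block 7 of the 10 passed in total splenocytes, where 16.2% of all genes did, and 3 in the YFP+ sort, where 18.5% did.

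The shares of cells with a UMI followed the Egr2 level. After thinning each cell to 2000 UMIs, 0.525% and 0.435% of control total and 1.87% and 4.73% of cKO total cells of the pool had an Egr2 UMI (unthinned 1.17% and 1.04% against 4.47% and 11.96%, at median depths of 5195 and 4170 against 5257 and 6001 UMIs). Among YFP+ cells the thinned share was 0.667% and 1.66% for control and 4.44% and 8.78% for cKO (unthinned 1.19% and 2.45% against 11.6% and 22.9%, at 4003 and 2794 against 5232 and 6054 UMIs). Naive CD8 T-like cells of total splenocytes, taken as a background, had a thinned Egr2 share of 0.474% and 0.724% in control and 0.469% and 1.47% in cKO at median depths of 6686 to 8009 UMIs, and neither control share of the pool in total splenocytes was above the higher control value of this background.

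**Figure D2:**
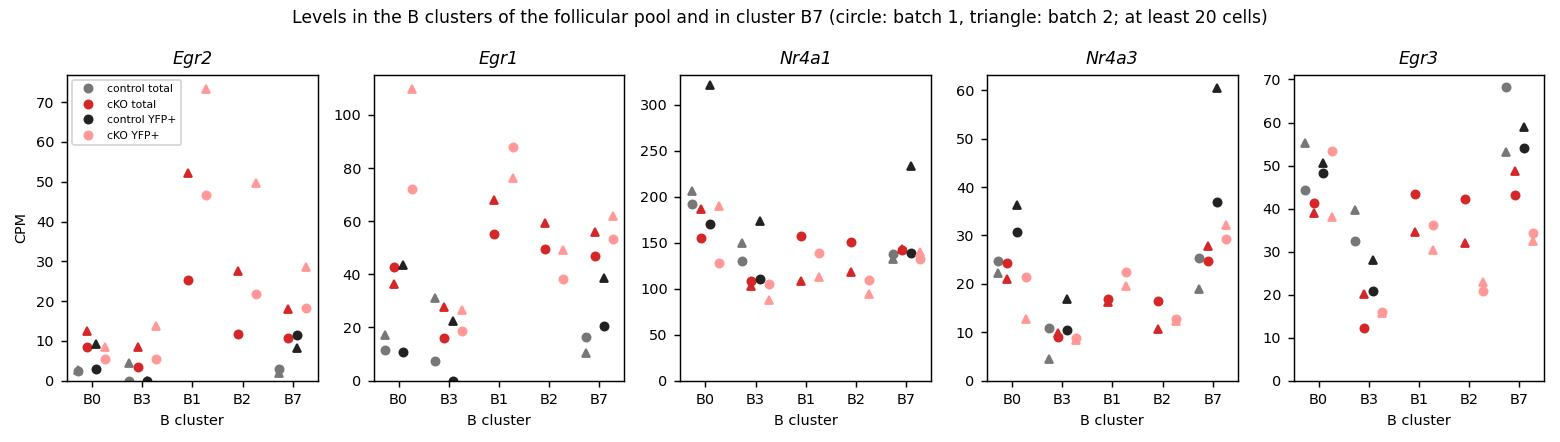
Levels in CPM (y axis, from 0) of 5 genes in the 4 clusters of the follicular pool and in cluster B7 (x axis), colored by group, with circles for batch 1 and triangles for batch 2 and a point for each library with at least 20 cells. Egr2 reaches 73.3 CPM in the cKO cells of B1 and stays under 14 in B0 and B3, and Nr4a3 of cKO total is at 24.3 and 21.0 in B0 but 9.10 and 9.76 in B3.

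In activated B-like cells of the YFP+ sort, the CPM of Egr2 rose and those of Nr4a1, Nr4a3 and Egr3 fell in the cKO. The libraries of the genotypes did not overlap for these genes and Ier2, 5 of the 10, nor for 55.9% of all genes. By edgeR 4 of the 10, Egr2, Nr4a1, Nr4a3 and Egr3, were called, where 9.14% of all genes were, and with the batch block 6, where 28.6% were. The class joined the clusters B9 and B13 and held 302 and 295 control YFP+ and 1652 and 1708 cKO YFP+ cells.

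Egr2 was at 8.62 and 19.0 CPM in control YFP+ and reached 79.5 and 99.5 in cKO YFP+ activated B-like cells, 7.10-fold higher (log2 fold change 2.83 ± 0.35, adjusted p = 0.0029). Egr3 fell from 47.3 and 52.3 CPM to 19.5 and 16.2, 2.64-fold lower (-1.40 ± 0.19, adjusted p = 0.0042). Nr4a3 fell from 29.6 and 37.6 CPM to 14.7 and 14.2 (-1.13 ± 0.21, adjusted p = 0.013). Egr2 and Egr3, both known for limiting T cell activation, thus moved in opposite directions in this class.

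Nr4a1 fell from 113 and 175 CPM to 66.6 and 62.1 (-1.09 ± 0.25, adjusted p = 0.032). This call was lost without cKO YFP+ 2 and with finer clustering (adjusted p = 0.060). More of the 10 were called without control YFP+ 2, a fit on a single control library. Its share of all genes called is not given. Nr4a2 did not follow the other members of its family, at 11.6 and 12.5 CPM in control and 11.5 and 17.0 in cKO. Egr1 overlapped between the genotypes, at 41.6 and 65.9 CPM against 67.5 and 57.7.

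None of the AP-1 genes or Ier2 was called in these cells without the block. Junb was at 316 and 587 CPM in control YFP+ against 495 and 614 in cKO YFP+ (0.37, adjusted p = 0.52, with the block 0.014), and Ier2 at 59.4 and 90.6 against 97.3 and 100 (0.48, adjusted p = 0.27, with the block 0.0065). Fos was at 221 and 462 CPM against 419 and 504, and Fosb at 43.8 and 91.3 against 47.5 and 55.0 (within-batch log2 ratios 0.12 and -0.73). For Fos, Junb and Ier2 the cKO value was the higher one within each batch.

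Heat shock genes in this class summed to 6053 to 7657 CPM in control YFP+ against 6264 to 6893 in cKO YFP+, and dissociation genes to 1231 to 1638 and 1489 to 1632, ranges that overlapped between the genotypes. The B cell markers summed to 4366 to 4497 CPM in control and 3203 to 3328 in cKO. The median depth was 9653 and 6141 UMIs in control YFP+ against 13183 and 17145 in cKO YFP+ cells. With all cells thinned to 2000 UMIs, 0.997% and 3.82% of control and 13.5% and 16.7% of cKO cells had an Egr2 UMI (unthinned 5.96% and 11.9% against 52.1% and 64.3%). For Nr4a1 the shares were 25.9% and 32.3% against 16.0% and 13.9% (unthinned 57.0% and 64.7% against 53.45% and 53.0%). Nr4a3 had 6.98% and 6.94% against 3.59% and 3.41% (unthinned 20.9% and 21.0% against 16.0% and 18.3%). Egr3 had 14.6% and 14.9% against 5.91% and 5.17% (unthinned 33.4% and 29.2% against 20.5% and 19.0%). CPM is relative to all UMIs, so its fall does not give the loss per cell.

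Both clusters of the class showed the Egr2 difference. In B13, led by the p53 targets Phlda3 and Cdkn1a and by Hacd1 and Fabp5, Egr2 rose from 3.80 and 14.2 CPM to 76.8 and 90.1 (3.38 ± 0.40, adjusted p = 0.00097), and Nr4a1 (-0.88, 0.030), Nr4a3 (-1.23, 0.0063) and Egr3 (-1.47, 0.0044) fell, where 21.3% of all genes were called. In B9, led by Mreg, Nr6a1, Il4i1 and Mir155hg, Egr2 rose from 17.5 and 27.1 CPM to 86.0 and 120 (2.38 ± 0.37, adjusted p = 0.0012), where 2.41% of all genes were called. Nr4a1, at 217 and 316 CPM against 138 and 112 in B9, passed only with the block (adjusted p = 0.0072), as did Nr4a3, at 50.4 and 62.9 against 30.6 and 26.9 (0.013), in a fit that called 12.7% of all genes. Cluster B13 was 114 and 102 of the control YFP+ and 722 and 817 of the cKO YFP+ cells of the class.

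In activated B-like cells of total splenocytes, Egr2 rose as well. It was at 8.34 and 9.80 CPM in control total and 31.9 and 52.0 in cKO total, 4.81-fold higher (2.27 ± 0.31, adjusted p = 0.017), the 1 call among the 10, where 0.445% of all genes were called. In a fit of all 8 libraries the adjusted p was 0.069. The block called 4 of the 10, where 6.71% of all genes passed, adding Egr1 as higher (31.1 and 41.8 CPM against 80.4 and 79.9) and Nr4a1 and Egr3 as lower.

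Nr4a1 did not pass without the block in this class of total splenocytes, at 197 and 210 CPM in control and 148 and 167 in cKO (-0.31, adjusted p = 1.0, with the block 0.027). Egr3 was at 88.4 and 102 CPM against 61.9 and 65.1 (-0.53, adjusted p = 0.77, with the block 0.0014). The genotype difference in the YFP+ sort less that in total cells was -0.85 for Egr3 (interaction adjusted p = 0.32, with the block 0.0085), -0.76 for Nr4a1 (0.56, with the block 0.065) and 0.57 for Egr2 (0.86, with the block 0.24). By edgeR none of the 10 interactions passed without the block, where 0.027% of all genes did, with 3 at an unadjusted p under 0.05, and 1 passed with it, where 8.0% did.

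**Figure D3:**
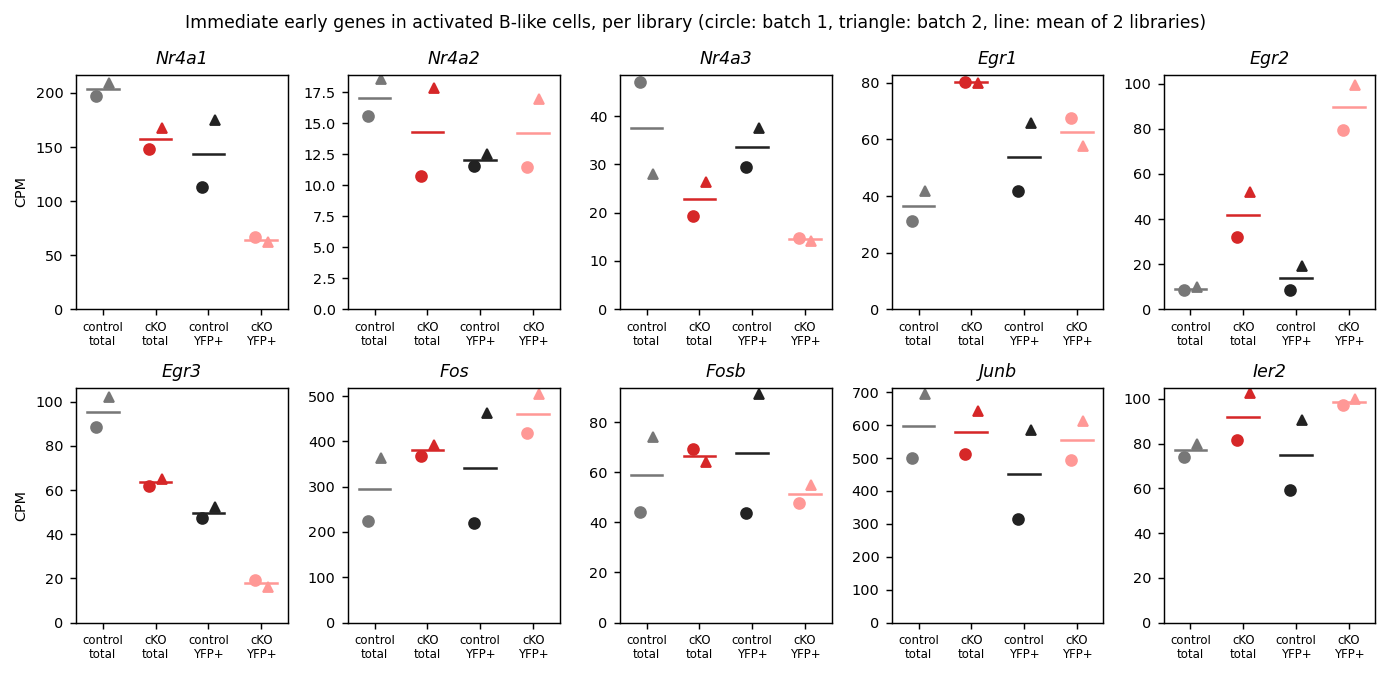
Levels in CPM (y axis, from 0) of the 10 genes in activated B-like cells of the 4 groups (x axis), with circles for batch 1, triangles for batch 2 and a line at the mean of 2 libraries. Egr2 is at 79.5 and 99.5 in cKO YFP+ against 8.62 and 19.0 in control YFP+, and Egr3 is at 19.5 and 16.2 against 47.3 and 52.3.

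In YFP+ GCB-like cells, Egr1 rose from 29.9 and 23.3 CPM to 62.4 and 60.5 (1.25, adjusted p = 0.019), the 1 call of the 10, where 1.20% of all genes were called. With the block 5 of the 10 passed, where 7.39% of all genes did, and DESeq2 called 3, where it called 2.18%. The class held 1678 and 3419 control and 354 and 213 cKO cells, and was made of clusters B6 and B12 in both genotypes.

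Egr2 in these cells was at 5.28 and 3.92 CPM in control YFP+ against 10.4 and 12.4 in cKO YFP+ (1.35, adjusted p = 0.061, with the block 0.00012). Fos was at 155 and 242 CPM against 375 and 413 (1.01, adjusted p = 0.20, with the block 3.2e-05), and Ier2 at 25.5 and 28.4 against 43.2 and 42.8 (0.70, adjusted p = 0.22, with the block 0.00090). Egr3 was the gene that passed in the other direction with the block, at 11.9 and 6.70 CPM against 6.13 and 3.73 (-0.82, adjusted p = 0.54, with the block 0.031). More of the 10 were called without control YFP+ 1 or without control YFP+ 2, in fits on a single control library each. Their share of all genes called is not given. Heat shock genes summed to 4755 to 5281 CPM in control and 5878 to 6115 in cKO cells of this class, and dissociation genes to 1023 to 1119 and 1008 to 1031, and the part of the former in the result was not tested.

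In the remaining B classes Egr2 was called in 3 comparisons without the block, all in the YFP+ sort, and none of these calls held in the fit of all 8 libraries. In B1-like cells of the YFP+ sort, innate-like B cells named here by markers and not the cluster B1 above, Egr2 rose from 7.01 and 12.3 CPM to 33.4 and 27.3 (1.76 ± 0.32, adjusted p = 0.021), where 1.68% of all genes were called. The adjusted p was 0.57 with coarser clustering and 0.069 in the fit of all 8 libraries. With the block 4 of the 10 passed there, where 14.5% of all genes did, and these added Egr1 (0.44) and Fos (0.55) as higher and Fosb (-0.61) as lower. Of these, Fosb and Fos changed sign between the batches, with within-batch log2 ratios of 0.19 and -1.49 and of 1.09 and -0.05. Egr1 had 0.64 and 0.05. In YFP+ interferon-response B-like cells no Egr2 UMI was seen in either control library, and the cKO libraries were at 25.1 and 43.0 CPM, at least 8.46-fold higher when 3 counts over the control group are taken as the floor, where 0.688% of all genes were called. The call was lost without cKO YFP+ 2 (adjusted p = 1.0) and in the fit of all 8 libraries (0.25). With the block Egr1 was called higher and Nr4a1 lower in addition, where 4.36% were. In YFP+ plasma-like cells Egr2 rose from 9.67 and 6.79 CPM to 17.95 and 25.6 (1.498 ± 0.32, adjusted p = 0.046), where 0.886% were. This call was lost in the fit of all 8 libraries (adjusted p = 0.15), without control YFP+ 2 (0.087) or cKO YFP+ 2 (0.36), without the low-count filter (0.076), with doublets removed (0.055) and with finer clustering (0.051).

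Plasma-like cells of total splenocytes went the other way. Egr2 was at 35.7 and 16.0 CPM in control total and 11.5 and 6.53 in cKO total (-1.60, adjusted p = 0.36), and with the block it was called lower (adjusted p = 0.0023), as was Egr1 (-0.81, adjusted p = 0.89, with the block 0.00066). By edgeR none of the 10 passed without the block in this class, where 0.116% of all genes did, with 1 at an unadjusted p under 0.05 and 0 by DESeq2, and 2 passed with it, where 4.27% of all genes did. In YFP+ plasma-like cells Nr4a1 was at 23.4 and 22.7 CPM in control and 39.4 and 38.4 in cKO (0.83, adjusted p = 0.29, with the block 0.019), in a fit that called 2.91% of all genes.

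Marginal zone B-like (MZB) cells of total splenocytes gave 0 calls by edgeR among the 10, where 0.0267% of all genes were called, with 2 of the 10 at an unadjusted p under 0.05 and 0 by DESeq2. With the block 4 passed, all higher in the cKO, where 1.21% of all genes did. They were Egr1, at 50.6 and 48.6 CPM in control and 84.5 and 70.1 in cKO, Fos, at 449 and 589 against 866 and 711, Fosb, at 103 and 126 against 190 and 166, and Junb, at 554 and 667 against 725 and 904. The libraries of the genotypes did not overlap for 7 of the 10, these 4 among them, nor for 22.1% of all genes. Of the 7, 5 were higher and 2, Nr4a2 and Egr3, were lower, beside 12.2% and 9.94% of all genes. In YFP+ MZB-like cells Egr2, at 11.2 and 17.2 CPM in control and 31.0 and 36.6 in cKO, passed only with the block (1.22, adjusted p = 0.56, with the block 0.0011), where 0.0881% of all genes passed without it and 1.08% with it.

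The remaining B classes of total splenocytes held no call by edgeR or DESeq2 among the 10, with 2 at an unadjusted p under 0.05 by edgeR in transitional B-like, 5 in interferon-response B-like, 4 in GCB-like and 0 in B1-like cells. The shares of all genes called, at the adjusted p, were 0.00913%, 0.179%, 1.81% and 0.155% in this order. They are not the background of the unadjusted counts, whose range was given above for naive B-like cells. With the block Egr1 was called higher in transitional B-like cells, at 62.5 and 86.7 CPM in control and 110.3 and 114 in cKO, and Egr3 lower, at 60.9 and 64.6 against 47.2 and 43.8, 2 genes of the 10 where 4.07% of all genes passed. In interferon-response B-like cells the block called 4, where 4.91% of all genes passed, namely Egr1 as higher and Egr3, Fosb and Junb as lower. Fosb there was at 86.6 and 86.0 CPM in control and 42.8 and 27.3 in cKO (-1.23, adjusted p = 0.22, with the block 1.4e-07). In GCB-like cells of total splenocytes the block called Fos alone, at 161 and 209 CPM against 315 and 334, where 4.69% of all genes passed, and in B1-like cells it called none, where 2.41% did.

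Summed over all B-lineage cells, unnamed clusters included, Egr2 rose in the YFP+ sort from 7.40 and 9.60 CPM to 46.3 and 69.8 (2.75 ± 0.35, adjusted p = 0.0087), the 1 of the 10 called by edgeR and by DESeq2, where they called 7.3% and 10.9% of all genes. It also passed in the fit of all 8 libraries (adjusted p = 0.016). The block called 4 there, where 20.1% of all genes passed, with Egr2 and Junb higher and Nr4a3 and Fosb lower. In total splenocytes, where Egr2 was at 7.31 and 6.48 CPM in control and 12.03 and 26.6 in cKO (1.58 ± 0.40, adjusted p = 0.31), edgeR called 0 of the 10 over this lineage and 0.0134% of all genes. There 5 of the 10 had an unadjusted p under 0.05, DESeq2 called 2, where it called 2.03% of all genes, and the block called Egr1 higher and Nr4a1, Nr4a3 and Egr3 lower, where 10.2% passed. These sums mix classes whose shares differed between the genotypes.

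Over the 15 B cell classes and sorts that could be tested, Egr2 was called higher in 5 of 14 and had a log2 fold change above 0 in 13. Egr1 was above 0 in 13 of 15 and called in 1, and Egr3 was below 0 in 14 of 15 and called in 1. Nr4a3 was below 0 in 13 and called lower in 2, and Nr4a1 was below 0 in 12 and called lower in 1. Fos, Fosb, Junb, Ier2 and Nr4a2 were called in none, with Fos above 0 in 12, Junb in 10, Fosb in 7 and Ier2 in 6 of the 15. Nr4a2 was below 0 in 12 of the 14 in which it was tested. With the block, Egr2 was called higher in 8 and lower in 1, Egr1 higher in 8 and lower in 1, Egr3 lower in 7 and Nr4a1 higher in 1 and lower in 5. The block also called Nr4a3 lower in 3 and Nr4a2 lower in 1, Fos higher in 4, Junb higher in 2 and lower in 2, Ier2 higher in 2 and lower in 1, and Fosb higher in 1 and lower in 2. Classes of 1 sort came from the same libraries, so these counts are not independent.

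**Figure D4:**
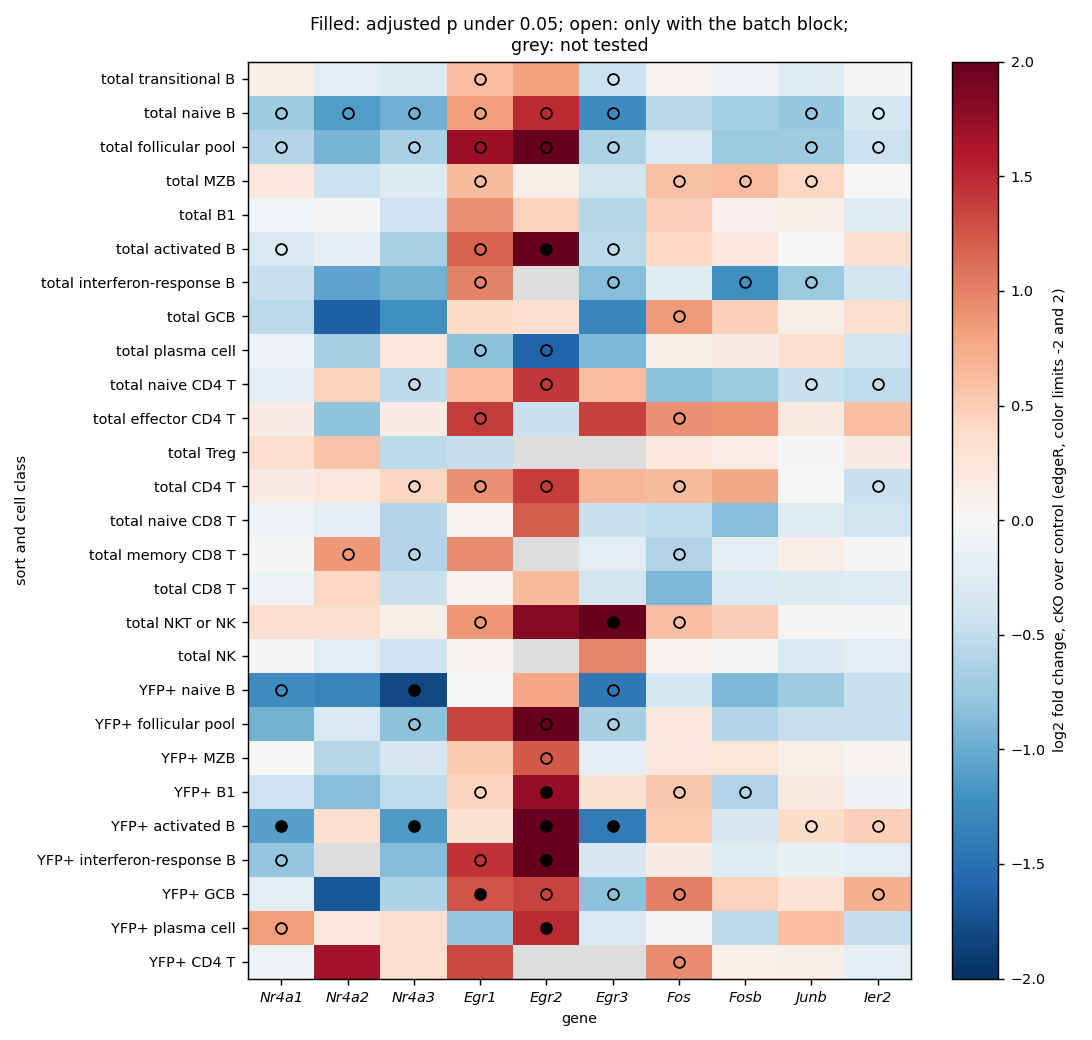
Log2 fold change of cKO over control (color, limited to -2 and 2) for the 10 genes (x axis) in each sort and class (y axis), with a filled circle for an adjusted p under 0.05, an open circle for a pass only with the batch block, and grey where a gene was not tested. The Egr2 column is positive in nearly every B class with the exception of plasma-like cells of total splenocytes, and the Egr3 and Nr4a3 columns are mostly negative in the B classes.

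T-like cells were read mainly in total splenocytes, since few of them were YFP+. CD4 T-like cells were the T cell clusters in which the share of cells with Cd4 was well above that with Cd8a. They include the NKT- or NK-like cells, which are also given separately below. In CD4 T-like cells of total splenocytes, 1435 and 1422 control and 1522 and 1990 cKO cells, edgeR called 0 of the 10, where 2.45% of all genes were called, with 2 at an unadjusted p under 0.05 and 1 by DESeq2, where it called 5.01%. With the block 5 passed, where 21.8% of all genes did. Calls among the 10 appeared without control total 2 and without cKO total 1, in fits that leave a single library in that group. The share of all genes called in them is not given.

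Egr2 in CD4 T-like cells was at 5.10 and 7.21 CPM in control total and 13.6 and 20.5 in cKO total (1.39 ± 0.31, adjusted p = 0.076, with the block 0.00053). Nr4a3 was at 189 and 169 CPM against 293 and 223 and was called higher with the block. Egr1 was at 27.5 and 29.3 CPM against 50.7 and 64.2 and Fos at 228 and 409 against 460 and 595, both called higher with the block. Ier2, at 154 and 219 CPM against 136 and 157, was called lower with it. Heat shock genes in these cells summed to 2502 to 3299 CPM in control and 2384 to 3242 in cKO.

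The CD4 T-like cells joined subsets whose shares differed between the genotypes. Beside the subsets below, the sum held cluster T7, with 0 cells in each control total library and 204 and 392 in cKO total. It also held cluster T8, with Egr2 at 10.5 and 11.3 CPM in control total and 3.06 and 11.9 in cKO total. In the NKT- or NK-like cells of the sum, Egr2 was at 7.43 and 8.42 CPM against 26.5 and 30.5. Naive CD4 T-like cells were 1016 and 943 in control total and 418 and 205 in cKO total, effector CD4 T-like cells 40 and 47 against 309 and 524, and follicular helper T-like (Tfh) cells 42 and 17 against 352 and 657. Egr2 was at 1.55 and 4.13 CPM in control and 6.16 and 8.80 in cKO naive CD4 T-like cells (1.41, adjusted p = 1.0, with the block 0.022), but at 13.2 and 28.1 in control and 9.62 and 18.5 in cKO effector CD4 T-like cells, lower in both batches (-0.44, adjusted p = 1.0, with the block 0.82) with 4 and 7 UMIs in control. Tfh-like cells, with under 20 cells in control total 2, were not tested, and their Egr2 level was 49.5 CPM in control total 1 (17 UMIs) against 31.0 and 33.4 in cKO total. No Egr2 value of cKO total was above the control range in these last 2 subsets. In naive CD4 T-like cells Nr4a3 was at 132 and 124 CPM in control total and 119 and 54.3 in cKO total, and the block called it lower (-0.52, adjusted p = 1.0, with the block 0.0041). That fit called 4 of the 10, where 3.63% of all genes passed, with Junb and Ier2 lower and Egr2 higher, and 0 passed without the block, where 0.0591% did, with 1 at an unadjusted p under 0.05 and 0 by DESeq2. In effector CD4 T-like cells the block called Egr1, at 26.4 and 32.1 CPM against 70.0 and 81.6, and Fos, at 218 and 374 against 522 and 576, both higher, where 1.47% of all genes passed. Without the block 0 passed there, where 0.247% did, with 4 at an unadjusted p under 0.05 and 0 by DESeq2. Treg-like cells gave 0 of the 8 genes tested in either fit, where 0.0152% and 0.364% of all genes passed, with 0 at an unadjusted p under 0.05 and 0 by DESeq2.

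The YFP+ sort held 188 and 34 control and 219 and 24 cKO CD4 T-like cells. Among the 8 genes that could be tested there, 0 passed by edgeR, where 0.787% of all genes did, with 3 at an unadjusted p under 0.05 and 0 by DESeq2. With the block Fos was called higher, at 195 and 328 CPM in control YFP+ and 483 and 544 in cKO (0.94, adjusted p = 0.92, with the block 0.011), where 2.18% of all genes passed.

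In CD8 T-like cells of total splenocytes none of the 10 passed in either fit, where 0.106% of all genes passed without the block and 4.53% with it. At an unadjusted p under 0.05 there was 1, Fos (-0.90), and DESeq2 called none. Among memory CD8 T-like cells the block called Nr4a2 higher, at 88.1 and 157 CPM against 197 and 297, and Nr4a3 and Fos lower, 3 of 9 tested where 5.2% of all genes passed, and 0 passed without it, where 0.781% did, with 1 at an unadjusted p under 0.05 and 0 by DESeq2. In naive CD8 T-like and in NK-like cells edgeR called 0 in either fit, where 0.0683% and 0.0451% of all genes passed without the block and 1.3% and 1.06% with it, with 0 at an unadjusted p under 0.05 without the block and 0 by DESeq2. Among NKT- or NK-like cells Egr3 rose from 13.01 and 15.4 CPM to 68.4 and 80.4 (2.38 ± 0.41, 5.19-fold, adjusted p = 0.045), where 0.0303% of all genes were called. That value rested on 7 and 11 UMIs in control and 31 and 29 in cKO, and the call was lost with DESeq2 (adjusted p = 0.65), with another scaling of the libraries (0.066) and with a stricter cell filter (0.060). With the block Egr1, at 125 and 88.4 CPM against 199 and 180.3, and Fos, at 717 and 741 against 1028 and 1132, were called higher as well, where 0.44% of all genes passed.

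Outside the lymphocytes, plasmacytoid dendritic-like and monocyte- or macrophage-like cells of total splenocytes gave 0 calls among the 10 by edgeR, where 0.0% of all genes were called in each, with 0 at an unadjusted p under 0.05 and 0 by DESeq2. With the block no gene passed in the former, where 0.61% of all genes did. In the latter Egr1, at 243 and 55.4 CPM in control and 321 and 223 in cKO, and Fos, at 870 and 1477 against 1494 and 1878, were called higher, where 1.2% did. Monocyte- or macrophage-like cells of the YFP+ sort gave 0 of 9 tested in either fit, where 0.0356% and 0.481% of all genes passed, with 0 at an unadjusted p under 0.05 without the block and 0 by DESeq2.

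Among the B, T and NK classes of control total with at least 20 cells in both libraries, the genes had distinct orders of level. Tfh-like cells did not meet this limit, and in control total 1 they were at 49.5 CPM of Egr2 and 463 CPM of Nr4a3, within or above the leading values that follow. Nr4a1 was highest in NKT- or NK-like (193 and 244 CPM), MZB-like (211 and 218), activated B-like (197 and 210) and naive B-like cells (191 and 205), with the NKT- or NK-like range overlapping each of the other 3, MZB-like cells above activated and naive B-like cells, and effector CD4 T-like cells (129 and 205) reaching into the NKT- or NK-like, activated and naive ranges. It was low in GCB-like (44.1 and 31.7) and naive CD8 T-like cells (24.2 and 42.6). Nr4a3 was led by NKT- or NK-like cells at 580 and 404 CPM and effector CD4 T-like cells at 281 and 249, which did not overlap, and Nr4a2 by NK-like cells at 219 and 349.

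Egr1 and Egr2 had their highest levels in control total plasma-like cells, at 205 and 98.8 CPM and at 35.7 and 16.0, although the 2 libraries lay apart. For Egr1 the NKT- or NK-like cells, at 125 and 88.4 CPM, overlapped with them, and for Egr2 the effector CD4 T-like cells, at 13.2 and 28.1, and the Treg-like cells, at 6.27 and 16.9. Fos was also highest in plasma-like cells, at 1377 and 1043 CPM. Egr3 was highest in activated B-like cells, at 88.4 and 102 CPM, above interferon-response B-like cells at 63.1 and 63.2, transitional B-like cells at 60.9 and 64.6 and MZB-like cells at 62.9 and 61.8, which did not differ beyond their spread. Junb was led by NKT- or NK-like cells at 1893 and 2941 CPM, overlapping with effector CD4 T-like cells at 1767 and 2309 and NK-like cells at 1166 and 1980, and GCB-like cells were lowest or near it for Junb (229 and 175) and Ier2 (27.5 and 38.3).

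**Figure D5:**
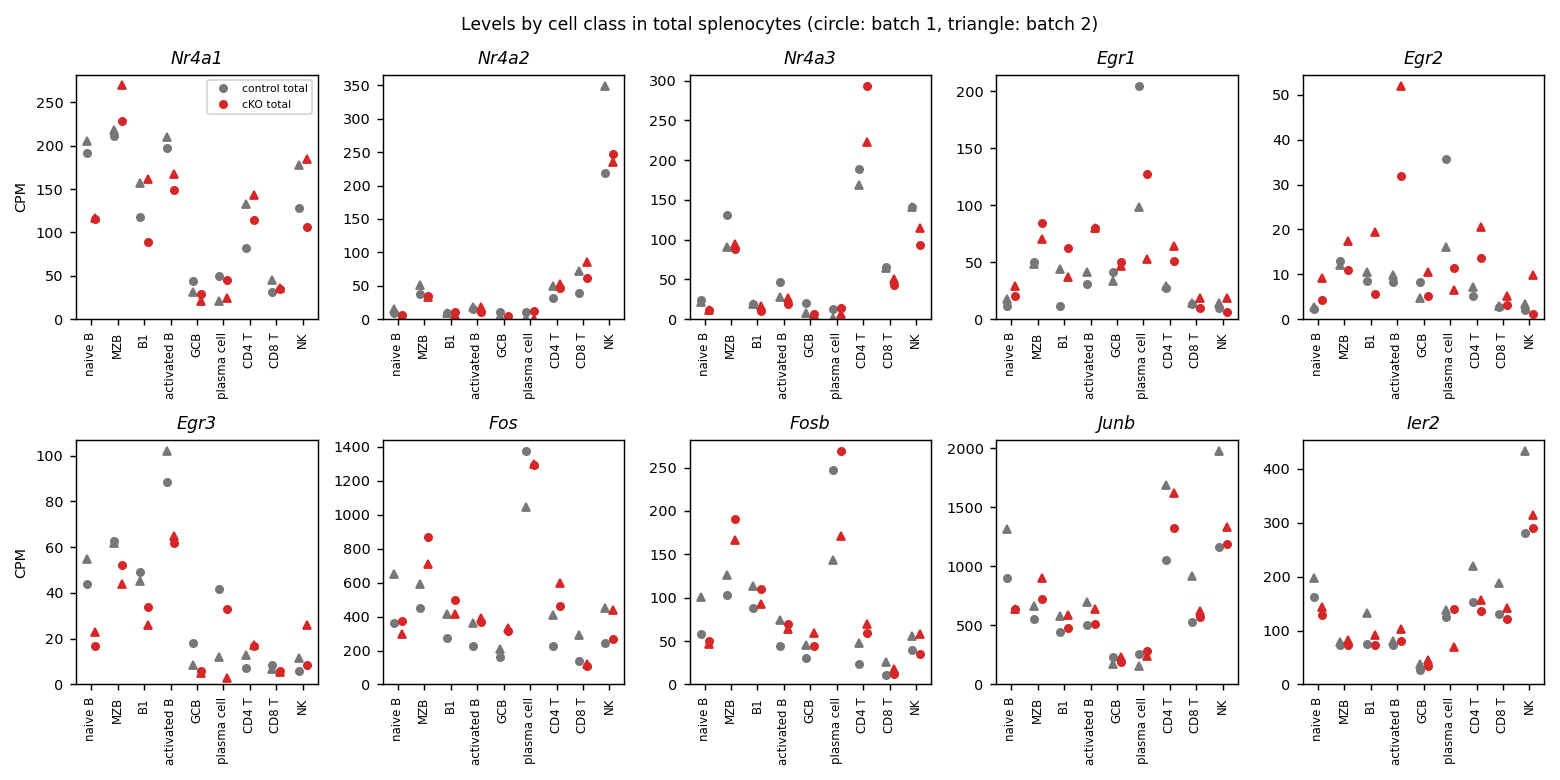
Levels in CPM (y axis, from 0) of the 10 genes by cell class (x axis) in control total and cKO total libraries, with circles for batch 1 and triangles for batch 2. Egr2 reaches 31.9 and 52.0 in cKO activated B-like cells against 8.34 and 9.80 in the controls, and Fos reaches 1377 in control plasma-like cells.

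Across 100 sums of a class in a library, Fos and Fosb had the closest levels among the 10 (Pearson r = 0.906 of log2(CPM + 1)), followed by Nr4a2 and Nr4a3 (0.81), Junb and Ier2 (0.80), Nr4a1 and Egr3 (0.75), Nr4a3 and Junb (0.737) and Egr1 and Fos (0.718). Egr2 was less close to Egr3 (0.238) than to Egr1 (0.567). The 5 genes most like the mean of the 10, out of 9916 compared, were Klf4 (0.77), Cebpb (0.746), Asb2 (0.742), Ier5 (0.738) and Kif13a (0.734). These sums share libraries and cell states, so the correlations are descriptions without a test.

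The sorts were compared within a genotype among naive B-like cells. Between control YFP+ and control total, edgeR called 0 of the 10, where 0.00837% of all genes were called, with 1 at an unadjusted p under 0.05 and 0 by DESeq2, and with the block 2, Nr4a3 (0.52, adjusted p = 0.031) and Fos (0.27, adjusted p = 0.027), where 2.71% were. Calls among the 10 appeared without control YFP+ 1, in a fit on a single control YFP+ library whose share of all genes called is not given. Between cKO YFP+ and cKO total it called 0, where 0.0% of all genes were, with 0 at an unadjusted p under 0.05 and 0 by DESeq2, and with the block 1, where 7.45% were. In the follicular pool, the same comparison in the cKO gave 0 calls by edgeR, where 0.0% of all genes were called, with 2 at an unadjusted p under 0.05 and 0 by DESeq2, but 8 with the block, all higher in YFP+, where 24.8% were. Among these 8, Fos was at 423 and 346 CPM in cKO total and 697 and 587 in cKO YFP+ (0.83 ± 0.21, adjusted p = 0.83, with the block 4.9e-06), while Nr4a1 (-0.02) and Egr3 (-0.03) were the 2 genes that did not pass. The make-up of the pool differed between these sorts. Cluster B1 was 678 of 3557 and 1503 of 3987 cells in cKO total and 2250 of 5398 and 4044 of 7080 in cKO YFP+. More cells of a state and more RNA per cell cannot be told apart here either. By edgeR no interaction of genotype and sort passed in naive B-like cells in either fit, where 0.0% of all genes passed without the block and 0.0842% with it, and 1 of the 10 had an unadjusted p under 0.05 and DESeq2 called 0.

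The batches differed in total naive B-like cells with genotype in the model. In batch 2 Egr1 (0.61, adjusted p = 0.00056), Egr2 (0.77, 0.029), Egr3 (0.43, 0.0029) and Ier2 (0.27, 0.012) were higher, 4 of the 10, where 38.9% of all genes were called, and 0 without genotype in the model. The count of 4 was thus near the background. In the same comparison 5 heat shock genes and 8 of the 10 dissociation genes were higher in batch 2 and none was lower.

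Partners, regulators and targets of the 10 genes were read from 4 further lists. In total naive B-like cells none of their members passed by edgeR. With the block, 0 of 5 AP-1 partners tested were called, 4 of 13 upstream factors (SRF, its cofactors, NFAT, MEF2 and calcineurin) were lower, 5 of 12 feedback genes such as the Dusp phosphatases and the Egr corepressors Nab1 and Nab2 were lower, and of 11 activation targets 8 were lower and 1 was higher, in a fit that called 11.0% of all genes. The smallest p values without the block were those of Irf4, a dose-dependent regulator of B cell fate (-1.34, adjusted p = 0.18), and the ERK phosphatase Dusp6 (-1.31, adjusted p = 0.32). Of 10 heat shock genes tested, 7 were lower with the block.

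In YFP+ activated B-like cells, the AP-1 partner Batf rose (0.76, adjusted p = 0.045), the 1 of 6 that passed. Of 13 upstream factors, the SRF cofactor Elk3 (1.05, 0.017) and the calcineurin subunit Ppp3r1 (0.86, 0.024) rose and Nfatc1 fell (-1.25, 0.027). The corepressor Nab1 fell (-0.79, 0.034), the 1 of 13 feedback genes, and the NF-κB regulator Nfkbid fell (-1.50, 0.0064), the 1 of 11 activation targets. Among the stress lists Hspb1 rose (3.17, adjusted p = 0.014), 1 of 11, as did Socs3 (1.83, 0.036) and Gadd45b (0.75, 0.0497), 2 of 10. As 9.14% of all genes were called in this fit, a count of 1 in lists of 10 to 13 genes was near the background.

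In YFP+ naive B-like cells none of these lists held a gene that passed, and 5 of 10 activation targets were lower with the block, where 7.21% of all genes were called. In YFP+ GCB-like cells Bhlhe40 fell (-1.44, adjusted p = 0.042), the 1 of 10 activation targets, and with the block 7 were lower and 1 higher, where 7.39% of all genes were called. No heat shock gene passed in that class in either fit.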

How the data were processed

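Spleens of 2-month-old mice (the labels name spleen as the source, and the protocols also name lymph nodes) were dissociated, sorted and profiled with SeekOne DD 3′ single-cell libraries. The deposited values were raw UMI counts per gene and barcode, made by the authors against GRCm38 (mm10) per the submitters' processing notes, with an aligner not given in the sources used here. No barcode in the files had fewer than 500 UMIs. The study's filter was applied (over 200 UMIs, over 100 genes, at most 10% mitochondrial UMIs), which removed 263 of 83967 barcodes.

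Cells were clustered with igraph 0.11.9 on 2000 variable genes, 30 principal components and 20 neighbours at resolution 1, with each batch scaled separately. The 10 genes, their companion lists and immunoglobulin, T cell receptor, ribosomal and mitochondrial genes were left out (855 in all). A cluster was called X-like only with at least 3 detected markers and leading genes that did not go against the name. Unnamed clusters made up 3.12% and 3.14% (control) against 37.5% and 46.0% (cKO) of the B lineage in total splenocytes, and 19.6% and 19.2% against 53.2% and 64.3% in the YFP+ sort. A doublet caller marked 0.755% to 2.46% of cells per library, with a threshold borrowed from other libraries in 5 of 8, and they were kept.

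Counts were summed per library and class with at least 20 cells per library, so that cells were never replicates. They were tested with edgeR 4.0.16 (quasi-likelihood, TMM scaling, filterByExpr) and the Benjamini-Hochberg adjustment over all genes, between 2 libraries of each genotype. Without the block the p-values thus measure the spread between 2 pools of mice per group. The block takes the difference between the batches out of that spread, so its p-values measure only what is left. Both fits also draw on the spread of other genes, and more so with the block, where fewer degrees of freedom remain. The labels mark a shared batch by number, and libraries of the same number deviated together in 33 of 33 group pairs (correlations 0.522 to 0.901 over genes with at least 10 UMIs), so the fit with batch as a block is given beside each result that it changes. DESeq2 1.42.0, other scaling, filters, cluster resolutions and left-out libraries were alternatives. The edgeR test without the block was run on simulated sums modelled on total naive B-like cells, with changes of known size and no batch effect. The other steps were not part of this check. UMI thinning used 2000 UMIs per cell, leaving out 34 to 221 shallower cells per library in the follicular pool. All 10 genes, every class tested, up to 4 genes per companion list with the smallest p and the 5 genes most like the 10 were named. The genes and lists were chosen with earlier results of these data known. Promoter sequences came from RefSeq, build GRCm38.p6. Values after ± are standard errors of the fit, which include the estimated spread between libraries, and floors cover counting error only.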

Additional observations from a re-analysis of the deposited data

Results flagged for a closer look

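For 5 pairs of a gene and a class, the genotype log2 ratio had opposite signs in total and YFP+ cells in both batches. The pairs were picked for this pattern, and the share of all genes that shows it is not given. Nor is the share of all genes called in the interaction fits of these classes. Egr2 in plasma-like cells had within-batch ratios of -1.63 and -1.29 in total and 0.89 and 1.91 in YFP+ cells, and the YFP+ mean less the total mean was 2.867 (interaction 3.08 ± 0.55, adjusted p = 1.0, with the batch block 0.011). Junb over all B-lineage cells had -0.29 and -0.73 in total and 0.64 and 0.61 in YFP+ cells, a difference of 1.134 (interaction 1.04, adjusted p = 0.36, with the block 0.0065). Ier2 over all B-lineage cells had -0.28 and -0.34 against 0.41 and 0.25, a difference of 0.635 (interaction 0.51, adjusted p = 0.75, with the block 0.033). Egr3 in B1-like cells had -0.53 and -0.79 against 0.36 and 0.10, a difference of 0.891 (interaction 0.88, adjusted p = 1.0, with the block 0.21). Fosb in plasma-like cells had 0.12 and 0.26 against -0.50 and -0.71, a difference of -0.796 (interaction -0.70, adjusted p = 1.0, with the block 0.37). The B lineage as a whole is a mixture of classes whose shares differ between the sorts and genotypes.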

How the results depend on the processing

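The counts below are of the 10 genes called in each comparison. Shares of all genes called are given above for most of the block and DESeq2 fits, and not for the other alternatives. With the replicate block, which takes the batch number as the pairing, the count went from 0 to 8 in total and 1 to 3 in YFP+ naive B-like cells, from 1 to 5 in YFP+ GCB-like cells, from 0 to 5 in CD4 T-like cells, from 6 to 48 over the other B, T and NK classes and the B-lineage sum together, from 0 to 2 and from 0 to 1 between sorts of control and cKO naive B-like cells, and from 4 to 6 in YFP+ activated B-like cells. By class, the shares of all genes called in these other classes were 0.00913% to 7.3% without the block and 0.364% to 20.1% with it. With the follicular pool in place of naive B-like cells, the YFP+ count went to 0, and with the pool and the replicate block counts were 7 in total and 3 in YFP+ cells and 3 and 8 between the sorts of control and cKO. Between batches in total naive B-like cells, 4 were called with genotype in the model, 0 without it (in naive B-like cells and in the pool), 1 with DESeq2 and 2 with all 8 libraries. DESeq2 gave 1 in total naive B-like, 3 in YFP+ naive B-like, 3 in YFP+ GCB-like and 1 in CD4 T-like cells. Without the low-count filter the same comparisons gave 1, 4, 3 and 2, and the other classes 10. Removing doublets gave 2 in YFP+ naive B-like cells, and resolutions 0.5 and 1.5 gave 0 there. With all 8 libraries in 1 model, CD4 T-like cells gave 1 and the other classes 1. Leaving out 1 library at a time gave 1 to 4 in total naive B-like, 1 to 5 in YFP+ naive B-like, 3 to 8 in YFP+ activated B-like and 1 to 6 in YFP+ GCB-like cells, 0 to 2 in CD4 T-like cells, 0 to 2 between sorts of control and 5 to 18 over the other classes (12 without control 1, 18 without control 2, 11 without cKO 1), with the lone library assumed to vary like the others. For batches it could not be fitted. The cause of these shifts was not tested. Among the genes called in the main fit, no fold change changed sign under the alternatives run. Genes of the other classes that were called only under an alternative were not checked for this. The limits are 2 pools of mice per group, classes built again from the counts, and few UMIs for Egr2 in control cells and for Nr4a3 in small clusters such as B3.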
